A study of Mus musculus with 4 samples.

Results

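Cycling plasmablasts are antibody-making cells of the B lineage that are still dividing. They were chosen by measured transcripts of the cells themselves in single-cell RNA data of the small intestinal lamina propria of mice, counted as unique molecular identifiers (UMIs, 1 per captured RNA molecule). A member had at least 3 UMIs summed over Mzb1, Derl3 and Tnfrsf17, no UMI of the T cell gene Cd3e, and at least 3 UMIs summed over the cycle genes Mki67, Top2a, Birc5, Ube2c, Cdk1 and Pclaf. This gave 107 members of 6130 kept cells, 105 of 1945 in replicate 1 and 2 of 4185 in replicate 2. They were described against 277 cells that passed the same plasma cell gate with at most 1 UMI summed over the cycle genes, 255 in replicate 1 and 22 in replicate 2, called non-cycling plasma cells below.

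The samples are labelled Cxxc1-deficient. The mice carried Cxxc1flox/flox alleles, were aged 6 to 8 weeks, and the cells had been sorted as group 3 innate lymphoid cells (ILC3s), so plasma cells are not the labelled cell type. The 4 labelled samples are 2 replicates with 2 sequencing libraries each, run on the BD Rhapsody system, and the labels do not say whether the replicates are separate animals. All samples share this genotype, so nothing was compared with Cxxc1-sufficient mice. With 2 members in replicate 2, no test was run: intervals cover counting error within a replicate only, and replicate 2 is given beside replicate 1.

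Plasmablasts form when an activated B cell starts to secrete antibody. The cell divides, enlarges its endoplasmic reticulum under the factor Xbp1, and on leaving the cycle becomes a plasma cell that puts much of its RNA into immunoglobulin. In the gut most of these cells make IgA, which is joined by the J chain (Jchain) into dimers that the epithelium carries to the lumen.

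The label held for nearly all members. Of the markers, Jchain had a UMI in 105 of 105 members of replicate 1 with a median of 354 UMIs per cell, and the 2 members of replicate 2 had 209 and 170. Jchain was not used to choose cells, while Mki67, Top2a, Birc5 and Mzb1 were. Immunoglobulin genes made up a median of 27.4% of a member's UMIs in replicate 1, against 0.420% in the other kept cells there, of which 97.5% also held an Igha UMI. In replicate 2 the other kept cells had a median of 0.0282% and 24.5% held an Igha UMI. These other cells were not split by kind. Some of them held much antibody RNA, since in replicate 1 their summed share was 5.34% and the highest cell had 77.3%. The low medians are taken as a background level of the antibody genes, and their source was not tested.

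A few gated cells held little immunoglobulin RNA, and some of these held genes of other kinds of cell. In replicate 1, 4 of 105 members had under 10% immunoglobulin UMIs. The lowest, at 0.943%, held 22 UMIs of Ms4a1 (CD20, a mature B cell receptor), 15 of Cd79a and 4 of Pax5 (the factor that keeps B cell identity) but 2 of Jchain. The next, at 1.09%, held 11 of Ms4a1, 24 of Cd79a and 5 of Pax5. Both thus held B cell genes and little antibody, and these genes were chosen after their values were seen. The other members under 10%, at 4.99% and 5.2%, held 0 UMIs of Ms4a1 and Pax5 but 55 and 133 of Jchain. Among non-cycling plasma cells 7 of 255 in replicate 1 and 2 of 22 in replicate 2 lay under 10%, and 4 of the 7 held 12 to 26 UMIs of Siglech, a receptor of plasmacytoid dendritic cells, which also express Mzb1. No member held a Siglech UMI. The values below keep these cells, and those that change without them are named.

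Markers of other cell types had UMIs in every member. Summed over these lists, members of replicate 1 held at least 4 UMIs with a median of 15, and 18 of 105 held 25 or more, against a median of 13 and 33 of 255 in non-cycling cells. Of 11 T cell markers 8 had a UMI in a member, with 0.781 UMIs per cell in replicate 1 against 0.780 in non-cycling plasma cells, and Cd3d, Cd8a and Cd5 were at 0. The 9 ILC3 markers summed to 2.61 UMIs per member against 2.14 in non-cycling cells, and the cytokine gene Il22 had 142 UMIs in members, 356 in non-cycling cells, and 1.35 against 1.40 UMIs per cell. The 9 stromal and endothelial markers summed to 12.9 UMIs per member against 9.75 per non-cycling cell in replicate 1, and to 2.5 against 74.0 in replicate 2, where 2 of the 22 non-cycling cells held 844 and 732 of these UMIs. One member of replicate 1 held 438, and Cdh5 was at 0 in all. Macrophage and dendritic markers came to 5.03 and 5.75 UMIs per cell in replicate 1, with C1qc, Adgre1, Xcr1, Clec9a and Siglech at 0 in members. Natural killer markers came to 0.571 and 0.824 with Eomes at 0, and epithelial markers to 0.857 and 0.788 with 6 of 9 at 0. Mast and erythroid markers had 0 UMIs in members of replicate 1 and 1 in replicate 2. By CPM the same lists were lower in members of replicate 1, at 86.6 against 203 for T cells, 289 against 557 for ILC3s and 1426 against 2535 for stromal cells. Epithelial markers had 95.1 CPM in members, 205 in non-cycling cells and 134 in the other kept cells. Their part in the results was not tested. No doublet caller was run beyond the tag calls. Of 116 cells of replicate 1 past both gates, 11 (9.48%) had a Cd3e UMI and had been left out, and 7 cell indices occur in both replicates.

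Members were deeper than non-cycling plasma cells. Their median was 12193 UMIs and 2899 genes per cell in replicate 1, against 8777 UMIs and 1698 genes, and the members of replicate 2 held 13913 and 7102 UMIs against a median of 8692.5. The surplus lay outside immunoglobulin: a median of 8338 other UMIs per member against 3627 per non-cycling cell, while immunoglobulin UMIs were 3213 against 4712. More RNA per cell and a better capture of larger cells cannot be told apart in these counts. Levels are given below as UMIs per 1000000 UMIs outside immunoglobulin genes (CPM), with UMIs per cell where the scales differ. The 2 members of replicate 2 held 15758 such UMIs in all, so that 63.5 CPM there stands for 1 UMI.

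The 6 cycle genes of the gate are described first, since they fix who is a member. Mki67 (a coat of mitotic chromosomes) had a median of 7 UMIs per member in replicate 1, from 0 to 53, and 5 in each member of replicate 2. Top2a, which untangles DNA before mitosis, had a median of 6, from 0 to 59, and 10 and 0 UMIs in the members of replicate 2. Birc5 (survivin, of the chromosomal passenger complex) and Ube2c (the E2 enzyme of the anaphase-promoting complex) had medians of 4, and Cdk1, the mitotic kinase, and Pclaf, which binds the replication clamp PCNA, of 2. Mki67 had a UMI in 104 of 105 members and Pclaf in 75, so no single gene of the gate marked all of them.

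Genes of this kind are known to be held in step by elements just upstream of their start sites. The cell cycle genes homology region (CHR) is bound by the DREAM complex in resting cells and by B-MYB with FOXM1 later, and the CCAAT box by NF-Y. The bases just before the RefSeq start of each gate gene (GRCm38.p6), the same length for all, are shown so that these words can be seen in the genes that define the members. Capitals mark the CHR words TTTGAA and TTCGAA and the box CCAAT on either strand, also where they overlap.
Mki67, chr7:135716380-135716529, minus strand: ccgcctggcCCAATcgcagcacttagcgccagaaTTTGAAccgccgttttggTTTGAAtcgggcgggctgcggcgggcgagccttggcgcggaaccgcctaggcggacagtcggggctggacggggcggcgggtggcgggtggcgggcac
Top2a, chr11:99024190-99024339, minus strand: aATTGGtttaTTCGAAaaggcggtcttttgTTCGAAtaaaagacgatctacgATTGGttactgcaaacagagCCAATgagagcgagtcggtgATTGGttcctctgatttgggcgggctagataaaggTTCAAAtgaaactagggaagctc
Birc5, chr11:117849087-117849236, plus strand: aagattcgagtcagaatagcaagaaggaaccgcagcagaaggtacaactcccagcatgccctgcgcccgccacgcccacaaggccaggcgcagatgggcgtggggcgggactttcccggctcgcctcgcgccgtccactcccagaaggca
Ube2c, chr2:164769779-164769928, plus strand: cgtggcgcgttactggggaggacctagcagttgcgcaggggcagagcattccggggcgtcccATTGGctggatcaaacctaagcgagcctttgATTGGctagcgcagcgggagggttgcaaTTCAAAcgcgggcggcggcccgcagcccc
Cdk1, chr10:69352913-69353062, minus strand: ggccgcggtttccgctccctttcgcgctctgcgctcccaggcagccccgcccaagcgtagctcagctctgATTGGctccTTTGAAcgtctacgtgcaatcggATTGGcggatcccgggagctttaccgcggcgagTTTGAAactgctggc
Pclaf, chr9:65890173-65890322, plus strand: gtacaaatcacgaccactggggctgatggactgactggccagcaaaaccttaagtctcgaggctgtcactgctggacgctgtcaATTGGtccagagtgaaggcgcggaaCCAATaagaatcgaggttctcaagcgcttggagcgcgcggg
A CHR word was present in 4 of the 6 windows (3 times in Top2a, 2 times in Mki67 and in Cdk1, 1 time in Ube2c), against 9.89% of 27025 promoters with the same window. A CCAAT box was present in 5 of 6, against 25.3% of promoters, and 4 times in Top2a. Of 166 cycle list genes with a promoter in the table, 22.3% had a CHR word and 60.8% a CCAAT box. Birc5 held neither word in this window, and Pclaf held 2 CCAAT boxes and no CHR word. The E2F words TTTCCCGC, TTTGGCGC, TTTCGCGC and TTTGCCGC, also searched on both strands, were in 1 of 6 windows, 10.2% of the cycle list and 1.26% of promoters. These are matches of letters and describe no binding.

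The other genes of the cycle moved with the gate, as a description of how the members were chosen. Called means at least 2-fold in the same direction in both replicates, with at least 20 UMIs in the 4 sums of a gene. Of 8189 genes counted, 92 (1.12%) were higher and 86 (1.05%) lower in members by that rule, and 806 (9.84%) and 1027 (12.5%) in replicate 1 alone. The split depends on the scale: with immunoglobulin UMIs kept in the totals 603 genes were higher and 10 lower, and per cell 1205 and 3. These scales add 1 constant to the log2 ratio of every gene, 0.70 and 1.23 in replicate 1, so that the median over all genes goes from -0.04 by CPM to 1.18 per cell. The 2 members of replicate 2 gave a ratio for 2705 genes. Of 149 genes called higher in replicate 1 with such a ratio, 135 were also above 1 there, against 59.7% of the 2705, and of 253 called lower 168 were below 1, against 40.3%. The 149 include the 26 genes of the cycle lists called higher in both replicates, which follow the gate. The count without cycle genes was not worked out.

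Genes of DNA synthesis and of mitosis were both present. Of 70 S phase genes 66 were at least 2-fold higher in replicate 1 and none lower, with a median log2 ratio of 2.83, and 4 were called in both. Rrm2, which makes deoxyribonucleotides, stood at 377 and 254 CPM in members and 20.4 and 0 in non-cycling cells, in replicates 1 and 2. Its ratio in replicate 1 was 18.5 (95% counting interval 11.8 to 30.7). Lig1, the replication ligase, had 224 against 18.3 in replicate 1, and the helicase subunit Mcm6 205 against 28.5. Pcna, the replication clamp, had 387 against 105 in replicate 1, but 190.4 against 139 in replicate 2, where members held 3 UMIs of it. Of 127 G2 and M phase genes 122 were at least 2-fold higher in replicate 1, with a median of 3.60, and 22 were called in both. Hmgb2, a chromatin protein, stood at 1333 and 1079 in members and 122 and 139 in non-cycling cells. Tubb5, a tubulin, had 941 and 571 against 85.6 and 92.8, and the condensin gene Smc4 914 and 444 against 133 and 58.

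Most members carried transcripts of both replication and mitosis. At least 1 UMI of 8 replication genes (Mcm2 to Mcm7, Cdc6 and Cdc45) was found in 85 of 105 members of replicate 1, and of 7 mitotic genes (Ccnb1, Ccnb2, Plk1, Cdc20, Aurka, Cenpe and Cenpf) in 84. Both groups were found in 73 members, only the first in 12, only the second in 11 and neither in 9. Among non-cycling plasma cells 21.6% and 3.92% held such UMIs. The 73 members were deeper, with a median of 13371 UMIs against 10120.5 and 7430 for those with 1 group and 11122 for those with neither. The median immunoglobulin share was 26% in the 73, 28.0% in the 12 and 35.3% in the 11, with ranges that overlapped.

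The G1 regulators did not move as a group. Of 20 counted, 3 were at least 2-fold higher and 2 lower in replicate 1, where 9.84% and 12.5% of all genes were. The median log2 ratio was 0.16. Cdk2, the S phase kinase, was called in both replicates, at 82.4 and 254 CPM in members and 31.6 and 34.8 in non-cycling cells. Rbl1 (p107, a retinoblastoma family member that E2F itself induces) had a ratio of 5.87 (95% counting interval 3.54 to 10.3) in replicate 1, and Cdk4 of 2.21 (1.67 to 2.94), with 0 UMIs in members of replicate 2. Ccnd2, a D cyclin, stood at 434 and 698 in members and 538 and 614 in non-cycling cells. The antiproliferative gene Btg2 was 207 against 447 in replicate 1 and 1015 against 545 in replicate 2, so its order differed between the replicates.

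Cycling plasmablasts made up 27.1% of plasma cells in replicate 1 (105 of 388, 95% exact binomial interval 22.7 to 31.8) and 8.33% in replicate 2 (2 of 24, 1.03 to 27.0). The intervals of the replicates overlap. A deeper cell passes a gate of 3 UMIs more easily, so plasma cells were also thinned to 2000 UMIs and gated again. The share was then 23.7% (72 of 304, 19 to 28.9) and 14.3% (2 of 14, 1.78 to 42.8), with 6 cells of replicate 1 too shallow. Cells without any UMI of the plasma gate passed the cycle gate in 6.51% of cases in replicate 1 (88 of 1351) and 2.06% in replicate 2 (85 of 4128), at lower depth. Plasma cells were themselves 19.9% of the kept cells of replicate 1 and 0.573% of replicate 2. At the edge of the gate, 28 plasma cells of replicate 1 had 2 cycle UMIs and stood in neither class, 9 had 3 and 4 had 4.

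Members devoted less of their RNA to antibody. Immunoglobulin genes (constant, variable and Jchain) took 26.8% of all UMIs of members in replicate 1 and 25% in replicate 2, against 54.9% and 53.7% in non-cycling plasma cells. In single cells of replicate 1 the quartiles were 20.3% and 36.3% in members and 49.97% and 63.8% in non-cycling cells. The ranges overlapped, from 0.943% to 60.1% and from 0.353% to 75.2%. Without the cells under 10% the shares of replicate 1 were 28.3% and 56.1%. Per cell the gap was smaller, since members were deeper.

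The share was lower at more cycle UMIs, with the 28 cells outside the 2 classes compared in between. In replicate 1 its median was 60.1% in 193 plasma cells with 0 cycle UMIs, 55.7% in 62 cells with 1 and 50.8% in the 28 cells with 2, which belong to neither class. It was 36.3% in 13 cells with 3 or 4 UMIs, 32.7% in 10 cells with 5 to 9, 37.9% in 13 cells with 10 to 19, and 25.2% in 69 cells with 20 or more. The order broke at 10 to 19 UMIs, and the bins between 3 and 19 hold 10 to 13 cells each. The median of the other UMIs went from 3606 to 10130 between the first and the last of these bins while that of immunoglobulin UMIs went from 4854 to 3249. The members of replicate 2, with 35 and 7 cycle UMIs, had 23.2% and 28.5%. These counts share the depth of the cell, and the cycle UMIs are part of its UMIs outside immunoglobulin. The order thus describes these cells and was not tested.

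**Figure D1:**
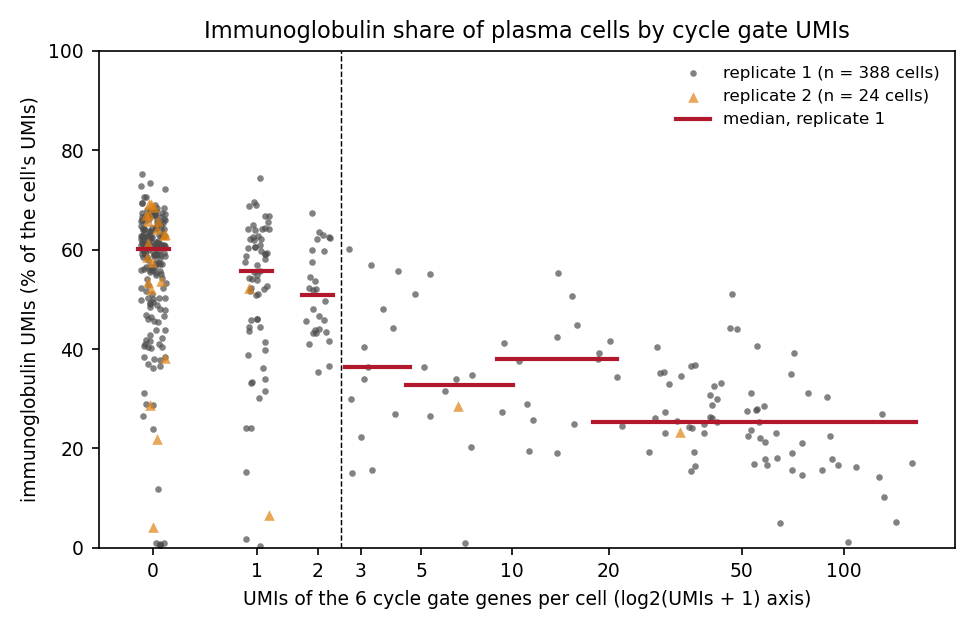
Immunoglobulin UMIs as percent of a cell's UMIs (vertical axis) against UMIs of the 6 cycle gate genes (horizontal axis, log2(UMIs + 1)) for 388 plasma cells of replicate 1 (dots) and 24 of replicate 2 (triangles). Red lines are medians of replicate 1 over bins of cycle UMIs, which go from 60.1% at 0 to 25.2% at 20 or more, and the dashed line is the gate of 3 UMIs.

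The same held for each main antibody transcript. Igha, the IgA heavy chain constant gene (ENSMUSG00000095079.6, chromosome 12, 113254830 to 113260236, minus strand, GRCm38), took 7.33% and 6.69% of all UMIs in members of replicates 1 and 2, and 15.7% and 17% in non-cycling cells. Counted per cell this was 904 and 703 UMIs against 1339.8 and 1436. Igkc, the kappa light chain constant gene (ENSMUSG00000076609.2, chromosome 6, 70726435 to 70726966, plus strand), took 14.7% and 16.1% against 29.6% and 27.5%. Jchain (ENSMUSG00000067149.6, chromosome 5, 88519809 to 88527891, minus strand) took 2.91% and 1.8% against 6.14% and 5.75%. Heavy chain, light chain and J chain were lower in members of both replicates by share and per cell, and their log2 ratios of share in replicate 1 lay close together, at -1.10, -1.01 and -1.08.

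**Figure D2:**
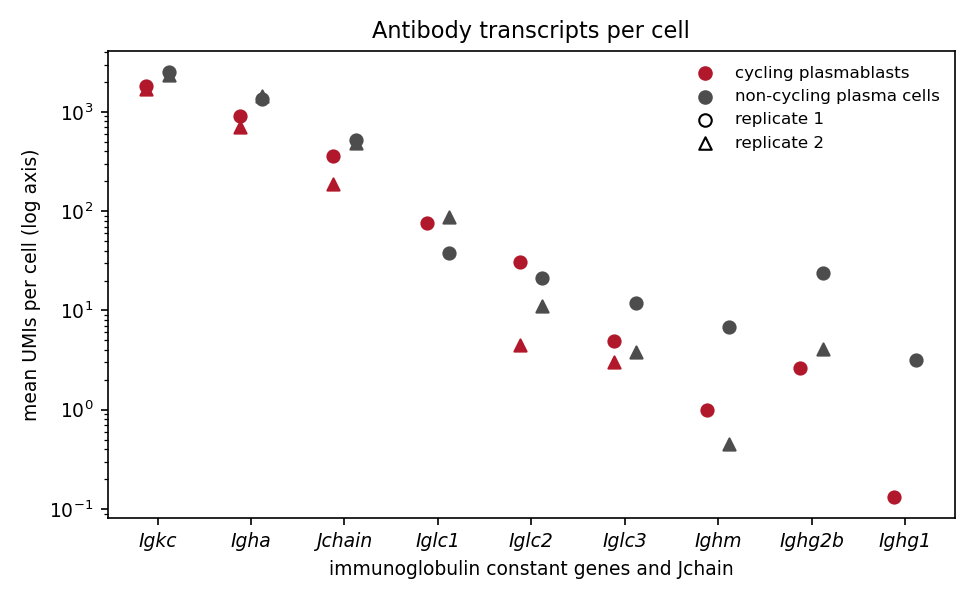
Mean UMIs per cell (log axis) of immunoglobulin constant genes and Jchain in cycling plasmablasts (red) and non-cycling plasma cells (grey) of replicate 1 (circles) and replicate 2 (triangles); a class with 0 UMIs has no point. Igkc, Igha and Jchain lie lower in members of both replicates, while Iglc1 is higher in members of replicate 1, at 76.3 against 38.3, and has 0 UMIs in members of replicate 2.

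Nearly all members were IgA cells. Among heavy chain constant genes Igha had the most UMIs in 105 of 105 members of replicate 1 (exact interval 96.5 to 100%) and in 2 of 2 of replicate 2. It led in 249 of 255 and 22 of 22 non-cycling cells, and the others of replicate 1 were 3 cells led by Ighm (IgM), 1 by Ighg1 and 2 by Ighg2b (IgG classes). The 2 members with about 1% immunoglobulin held 50 and 131 Igha UMIs, in 11565 and 28321 UMIs in all. Cycling cells of replicate 1 with no plasma gate UMI held a median of 8 Igha UMIs and at most 73, at a median of 6604 UMIs. Since cells outside the plasma gate also hold Igha, these 2 members are given no isotype. Without the 4 members under 10%, Igha led in 101 of 101 (exact interval 96.4 to 100%), and 3 counts of the total, the limit taken for a count of 0, allow up to 2.97% for each other isotype. The other constant genes followed the few cells that carry them: Ighg2b had 2.61 UMIs per cell in members and 23.7 in non-cycling cells of replicate 1, Ighm 1 and 6.84, and Ighg1 0.133 and 3.16. Ighg2c had 25 UMIs in members and 42 in non-cycling cells, Ighg3 5 and 18, Ighd 1 and 0, and Iglc4 0 and 2.

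Kappa light chains led in most members. Igkc had the most light constant UMIs in 99 of 105 members and 248 of 255 non-cycling cells of replicate 1, and Iglc1 in 4 and 4. By variable genes the lambda gene Iglv1 led in 10 of 97 members (10.3%, 5.06 to 18.1) and in 15 of 222 non-cycling cells (6.76%, 3.83 to 10.9). Iglc2 stood at 30.6 UMIs per cell in members and 21.4 in non-cycling cells, and Iglc3 at 4.87 and 11.9. The lambda constant genes are near copies of each other, so the split of UMIs among them is uncertain.

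Members used many pairs of variable genes. A leading heavy and a leading light variable gene, each with at least 3 UMIs and more than all other variable genes of that kind in the cell together, could be given to 82 members of replicate 1, which held 68 pairs. The most common pair was Ighv8-5 with Igkv1-117, in 9 members (11%), followed by 6 pairs in 2 members each. The same pair was in 9 of 196 non-cycling cells (4.59%) and in 1 of the 2 members of replicate 2. The most common pair of non-cycling cells, Ighv1-72 with Igkv10-96, was in 13 of them and in 1 member. Of the pairs, 16 occurred in both classes, which is 23.5% of the pairs of members and 11.8% of those of non-cycling cells. Junction sequences were not analysed here, so cells with the same pair are not called a clone, and UMIs of near-identical variable genes can be split between them.

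The secretory machinery did not follow immunoglobulin. Of 67 genes of secretion and the unfolded protein response, 62 lay within 2-fold in replicate 1 and the median log2 ratio was 0.08, against -0.04 over all genes counted. Hsp90b1 (GRP94, the chaperone of immunoglobulin chains in the endoplasmic reticulum) had 13157 and 8123 CPM in members and 11043 and 6342 in non-cycling cells. Hspa5 (BiP), which holds unassembled heavy chains, had 5094 and 3808 against 6884 and 4325. Per cell both were higher in members of replicate 1, at 119 against 42.5 and 45.9 against 26.5 UMIs, while immunoglobulin was lower. Ssr2, a subunit of the translocon-associated complex (ENSMUSG00000041355.13, chromosome 3, 88575876 to 88588419, plus strand), was the gene called higher in both replicates, at 1282 and 1142 against 617 and 475.

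Called lower in both were 3 of the 67 genes of secretion and the unfolded protein response, against 1.05% of all genes counted. In replicate 1 alone 4 were at least 2-fold lower, against 12.5%. Eif2ak3 (PERK, the kinase that slows translation under endoplasmic reticulum stress; ENSMUSG00000031668.14, chromosome 6, 70844515 to 70905245, plus strand) had 114 and 63.5 against 338 and 371, with a ratio of 0.337 (95% counting interval 0.269 to 0.42) in replicate 1. Herpud1, of the degradation pathway of the reticulum, had 918 and 952 against 2569 and 2099, and the co-chaperone Dnajb9 276 and 63.5 against 602 and 568. In replicate 2 Eif2ak3 and Dnajb9 each rested on 1 UMI in members, and the interval of the Eif2ak3 ratio there, 0.0042 to 1.02, included 1. Ddit3 (CHOP), a factor of prolonged stress, was lower in replicate 1 with a ratio of 0.48 (0.336 to 0.677) and had no UMI in members of replicate 2. Per cell Eif2ak3 and Herpud1 remained lower in replicate 1 (1.03 against 1.3 and 8.28 against 9.88 UMIs), but Dnajb9 was 2.49 against 2.32 and Ddit3 0.476 against 0.424, slightly higher in members. In replicate 2 they were lower per cell, at 0.500 against 2.23 and 0 against 0.273.

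Plasma cell identity genes were lower in members by CPM. Of 19 counted, 8 were at least 2-fold lower in replicate 1 and none higher, with a median log2 ratio of -0.67 outside immunoglobulin, 0.03 with it and 0.56 per cell, where the median over all genes counted was 1.18. Xbp1, the factor of the secretory programme (ENSMUSG00000020484.18, chromosome 11, 5520659 to 5525893, plus strand), stood at 1460.0 and 571 CPM in members and 3580.0 and 2632 in non-cycling cells. Its ratio was 0.408 (95% counting interval 0.383 to 0.434) in replicate 1 and 0.217 (0.098 to 0.419) in replicate 2, and per cell it was 13.2 and 4.5 UMIs against 13.8 and 10.3. Cd93, a surface protein of mature plasma cells that bears on their survival (ENSMUSG00000027435.8, chromosome 2, 148436640 to 148443563, minus strand), had 80.3 and 63.5 against 375 and 696. Cd93 was also lower per cell, at 0.724 against 1.44 UMIs in replicate 1. Sdc1 (CD138) had 239 and 0 against 491 and 499 by CPM, and Lax1, an adaptor that dampens antigen receptor signals, 337 and 127 against 769 and 441. Per cell Sdc1 had 2.15 and 0 UMIs against 1.89 and 1.95, and Lax1 3.04 and 1 against 2.96 and 1.73, slightly higher in members of replicate 1 and lower in replicate 2.

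Other genes of the list did not pass in replicate 2. Trp53inp1 had 1269.8 and 1396 against 3213 and 2307 and Tent5c, which lengthens the tails of immunoglobulin mRNA, 658 and 571 against 1481 and 939. Ly6c2 and Oosp1 were also lower in replicate 1, with ratios of 0.377 (0.321 to 0.44) and 0.44 (0.272 to 0.694). Of the gate genes, given as a description, Mzb1 was 4797 against 4419.9 CPM in replicate 1, Derl3 613 against 1069 and Tnfrsf17 179 against 374. Per cell the median was 40 Mzb1 UMIs against 11, and 4 against 3 for Derl3.

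B cell genes were mostly lower by CPM. Of 20 counted, 6 were at least 2-fold lower and 1 higher in replicate 1, with a median log2 ratio of -0.23, which turns to 0.47 with immunoglobulin in the totals and 1.00 per cell. Cd79a, the signalling chain of the B cell receptor, was called lower in both, at 459.5 and 317 against 1157 and 1472 CPM, and was 4.14 against 4.45 per cell in replicate 1. Fcrla, Bach2 and Ebf1 were lower in replicate 1, with ratios of 0.307 (0.223 to 0.419), 0.324 (0.0928 to 0.925) and 0.345 (0.187 to 0.608). The gene that was higher, Ms4a1, had 41 UMIs in members and 12 in non-cycling cells of replicate 1, a ratio of 3.54 (1.83 to 7.4), with 33 of the 41 in the 2 members with about 1% immunoglobulin and 11 of the 12 in 1 non-cycling cell under 10%. Without the cells under 10%, 8 UMIs were left in members and 1 in non-cycling cells. Ly6d stood at 374 against 372 in replicate 1 and 63.5 against 522 in replicate 2, and Vpreb3 at 199.7 and 190.4 against 539 and 359.

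Antigen presentation genes were not called. All 8 MHC class II genes counted lay within 2-fold in replicate 1, with a median log2 ratio of -0.38 that turns to 0.31 with immunoglobulin in the totals and to 0.84 per cell. Cd74, the invariant chain, had 1124 and 698 CPM against 1926 and 1600.0, and H2-Ab1 580.0 and 190.4 against 774 and 614. The other kept cells of replicate 1 had 2496 of Cd74, above both classes. Of 10 germinal centre genes 3 had enough UMIs to be counted and none passed 2-fold. Basp1 had 144 against 146 in replicate 1 and 63.5 against 255 in replicate 2, S1pr2 had 25.4 against 24.5 in replicate 1, and Bcl6, Rgs13 and Gcnt3 had no UMI in a member.

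Growth and biosynthesis genes were higher in members of replicate 1. Of 16 glycolysis genes 7 were at least 2-fold higher in replicate 1, none lower, and 3 were called in both, with a median log2 ratio of 0.76. Pgk1 (ENSMUSG00000062070.12, chromosome X, 106187100 to 106203699, plus strand) had 349 and 254 CPM in members and 141 and 46.4 in non-cycling cells, Pkm 409.9 and 571 against 166 and 128, and Tpi1 159.5 and 254 against 62.2 and 11.6. For these enzymes both replicates of members lay above both of non-cycling cells, on few UMIs in members of replicate 2. Eno1, which follows Pgam1 in the pathway, had a ratio of 4.02 (95% counting interval 2.92 to 5.62) in replicate 1, Ldha, which makes lactate, of 2.47 (1.98 to 3.09), and Pgam1 of 2.28 (1.74 to 3.02). Gapdh had 1206 and 1206 against 539 and 614, just under 2-fold in replicate 2. Aldoa was 374 against 449.5 in replicate 1 and 508 against 186 in replicate 2. Its order thus differed between replicates, and several glycolysis genes have processed pseudogenes that can take part of their counts.

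Nucleotide and one-carbon synthesis showed the same in replicate 1, where 14 of 28 genes were at least 2-fold higher and none lower, with a median log2 ratio of 1.00. None was called in both replicates. Psat1, of serine synthesis (ENSMUSG00000024640.9, chromosome 19, 15904678 to 15947337, minus strand), had 161 against 27.5 CPM in replicate 1, a ratio of 5.83 (95% counting interval 3.86 to 9.14), and 63.5 against 46.4 in replicate 2, where members held 1 UMI. Mthfd1l, of mitochondrial folate metabolism, had a ratio of 6.43 (2.48 to 21.2) in replicate 1, Dctpp1, which clears unwanted deoxynucleotides, of 5.29 (2.65 to 11.7), and Dtymk, the thymidylate kinase, of 4.49 (2.53 to 8.48). Nme1 (711 and 635 against 388 and 417) and Shmt2 (313 and 254 against 175 and 209) were the most abundant of those not called and were higher in both replicates by less than 2-fold.

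Genes of ribosome biogenesis and MYC activity were higher in part. Of 33, 10 were at least 2-fold higher and 1 lower in replicate 1, with a median of 0.67. Above a ratio of 1 were 29 genes. Below 1 were 4: Rrs1 (log2 ratio -1.27), Odc1 (-0.87), Gnl3 (-0.42) and Myc itself (-0.06). Ncl (nucleolin), called in both, had 1072 and 571 against 528 and 243, and Npm1 956 and 444 against 417 and 406. Eif5a had 1236 and 2411 against 700.3 and 754. Nhp2, Tfrc (the transferrin receptor), C1qbp and Hspd1 had ratios of 3.44 (2.03 to 6.08), 3.39 (2.4 to 4.87), 3.33 (2.06 to 5.58) and 3.07 (2.36 to 4.03) in replicate 1.

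Ribosomal protein genes shifted by a small amount together. Of 80 counted, 78 were above a ratio of 1 in replicate 1 and 7 past 2-fold, where 9.84% of all genes were. The median log2 ratio was 0.68 in replicate 1 and 0.77 over 78 genes in replicate 2. Rps2 had 1872 and 2348 CPM against 719.7 and 788, Rps19 1189.5 and 1777 against 537 and 579.7, Rpl14 822 and 952 against 406 and 313, and Rpl28 2313 and 3046 against 1154 and 1391. Rps24, abundant in both classes, did not share the shift, at 3156 and 3046 against 3173 and 3328. Many ribosomal protein genes have close pseudogene copies, so single values are uncertain. Rpl13a, Rpl36a and Rpsa were past 2-fold in replicate 1 alone, with ratios of 2.49 (1.87 to 3.35), 2.01 (1.81 to 2.22) and 2.12 (1.91 to 2.35). Rps26 had 4027 and 6029 against 2127 and 2191.

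Oxidative phosphorylation genes did likewise, with 78 of 87 above 1 and a median of 0.53 in replicate 1. Past 2-fold were 3 higher and 2 lower, where 9.84% and 12.5% of all genes were. Sdhd, a subunit of succinate dehydrogenase, was called in both, at 281 and 254 against 102 and 92.8. Cox6a1 and Atp5g3, the most abundant of those not called, had 1209.6 and 1459.6 against 695 and 499, and 1111 and 1650.0 against 685 and 499. The lowest ratio was that of Cox6a2, with 2 UMIs in members and 29 in non-cycling cells of replicate 1, of which 27 lay in the non-cycling cells under 10% immunoglobulin.

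**Figure D3:**
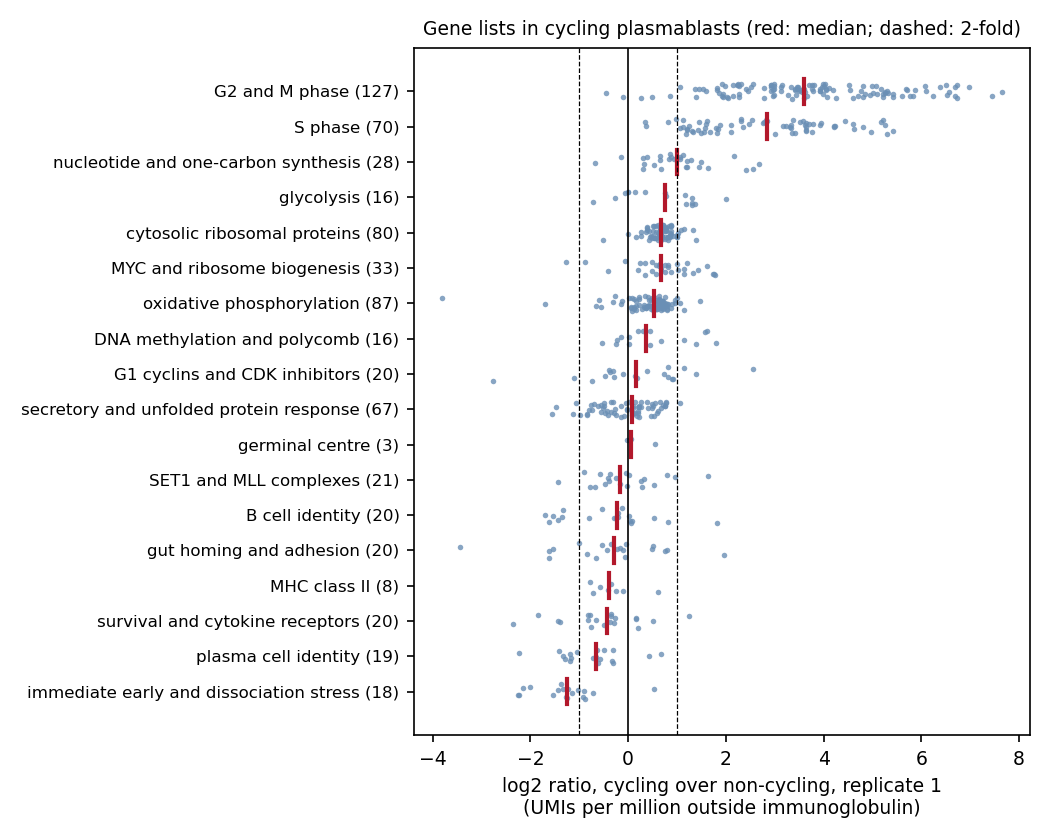
Log2 ratios of CPM, members over non-cycling plasma cells of replicate 1 (horizontal axis), for each counted gene (points) of the gene lists (rows, number of genes in brackets), with medians in red and 2-fold as dashed lines. Medians run from 3.60 for G2 and M phase genes to -1.26 for immediate early genes.

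Adhesion and homing genes were mixed. Of 20 counted, 4 were at least 2-fold lower and 1 higher in replicate 1, where 12.5% and 9.84% of all genes were. None was called in both. Itga4, which pairs with Itgb7 in the gut homing integrin, had 728 and 444 CPM in members and 522 and 313 in non-cycling cells, and Cd44, a hyaluronan receptor, 607 and 571 against 656 and 475. Itgam had 34 UMIs in members and 9 in non-cycling cells of replicate 1, a ratio of 3.92 (1.84 to 9.28). Cxcr3 and Vcam1 rested on 5 UMIs in members each.

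Survival genes moved in few cases. Of 20 counted, 4 were at least 2-fold lower and 1 higher in replicate 1, where 12.5% and 9.84% of all genes were, with a median log2 ratio of -0.43 that turns to 0.80 per cell. In replicate 2 the median went the other way, at 1.02 over the 10 genes with a ratio. Mcl1, on which plasma cells depend, had 613 and 698 against 966 and 1125. The death-promoting genes Bbc3 and Bmf had 21 and 3 UMIs in members of replicate 1 against 59 and 16 in non-cycling cells, with ratios of 0.369 (0.213 to 0.616) and 0.194 (0.0363 to 0.679) and no UMI in members of replicate 2. Il10rb and Il6st, chains of the IL-10 and IL-6 receptors, had ratios of 0.278 (0.156 to 0.474) and 0.38 (0.222 to 0.629), and Il2rg had 254 and 381 against 322 and 394.

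Cxxc1, the gene floxed in these mice (ENSMUSG00000024560.7, chromosome 18, 74216124 to 74221496, plus strand), is a subunit of the SET1 complexes that methylate histone H3 at lysine 4. It stood at 129.9 and 127 CPM in members and 135 and 116 in non-cycling plasma cells, with a ratio of 0.966 (95% counting interval 0.749 to 1.24) in replicate 1. The other kept cells of replicate 1 had 63.4. Whether these UMIs come from the floxed exons cannot be read from counts per gene. Of 21 genes of the SET1 and MLL complexes 19 lay within 2-fold in replicate 1, where 9.84% of all genes were higher and 12.5% lower. Rbbp5 had a ratio of 3.11 (1.53 to 6.82) and Kdm6b of 0.368 (0.283 to 0.474), and Kdm6b was 571 against 255 in replicate 2, the other way round. Kmt2a had 154 and 254 against 230.4 and 139, and Psip1 275 and 63.5 against 280.3 and 243.

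Of 16 genes of DNA methylation and polycomb repression, 5 were at least 2-fold higher in replicate 1 and none lower. Cbx3, a heterochromatin protein, was called in both, at 317 and 508 against 120.3 and 151. Dnmt1, which copies methylation at replication forks, had 94 against 31.6 in replicate 1, a ratio of 2.98 (1.96 to 4.63), and Hdac2, Rbbp7 and Suz12 had ratios of 3.47 (1.99 to 6.37), 3.06 (2.28 to 4.16) and 2.19 (1.73 to 2.8). In replicate 2 members had 0 UMIs of Dnmt1, Rbbp7 and Suz12, against 3, 5 and 5 in non-cycling cells. Rbbp4 was 224 and 127 against 182 and 116.

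Outside the cycle lists, 12 genes had the largest ratios among those called higher in both replicates. Gm10282 (ENSMUSG00000070713.5, chromosome 8, 72304110 to 72305260, minus strand), a predicted gene, had 233 and 317 CPM in members and 26.5 and 23.2 in non-cycling cells. Hat1, which acetylates newly made histone H4 (ENSMUSG00000027018.11, chromosome 2, 71388958 to 71441622, plus strand), had 104 and 317 against 19.4 and 11.6, and Nucks1, a chromatin protein phosphorylated by cyclin-dependent kinases, 487 and 825 against 118 and 116. Kmt5a, which methylates histone H4 at lysine 20, had 212 and 254 against 54 and 69.6. In replicate 1 the ratios were 8.81 (5.85 to 13.8), 5.35 (3.25 to 9.26), 4.12 (3.35 to 5.09) and 3.93 (2.89 to 5.43). Arl6ip1, a protein that shapes the endoplasmic reticulum, had 666 and 444 against 129 and 34.8. Pmf1 (of the kinetochore), Rfc1 (of the clamp loader), Dnajc2, Alyref (of mRNA export), Fam111a (which binds PCNA), Snrpe (of the spliceosome) and Pdcd5 had ratios of 3.51 to 5.28 in replicate 1. In replicate 2 each of Pmf1, Rfc1, Dnajc2, Alyref, Fam111a and Pdcd5 rested on 2 UMIs in members.

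Slpi led the genes called lower in both. This secreted protease inhibitor (ENSMUSG00000017002.14, chromosome 2, 164354070 to 164389095, minus strand) had 54.9 and 0 CPM in members and 485 and 1461 in non-cycling cells, a ratio of 0.113 (95% counting interval 0.0833 to 0.151) in replicate 1. It was also lower per cell, at 0.495 against 1.87 UMIs. Fam214a (ENSMUSG00000034858.16, chromosome 9, 74952884 to 75032468, plus strand) had 153 and 190.4 against 921 and 835, and Neil1, a DNA glycosylase of base excision repair (ENSMUSG00000032298.13, chromosome 9, 57142800 to 57148305, minus strand), 35.9 and 127 against 225 and 348. Per cell they were 1.38 against 3.55 and 0.324 against 0.867 in replicate 1. The other kept cells of replicate 1 held less of Slpi, Fam214a, Neil1 and Cd93 than either class, at 16.8, 38.2, 35.1 and 48.5 CPM. Tmem176a, Kctd12, Gm19585 and the kinase gene Sik1 had ratios of 0.211 (0.173 to 0.257), 0.258 (0.205 to 0.322), 0.213 (0.131 to 0.332) and 0.249 (0.201 to 0.307). Of the 86 genes called lower, 57 were also lower per cell in replicate 1 and 6 at least 2-fold so.

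**Figure D4:**
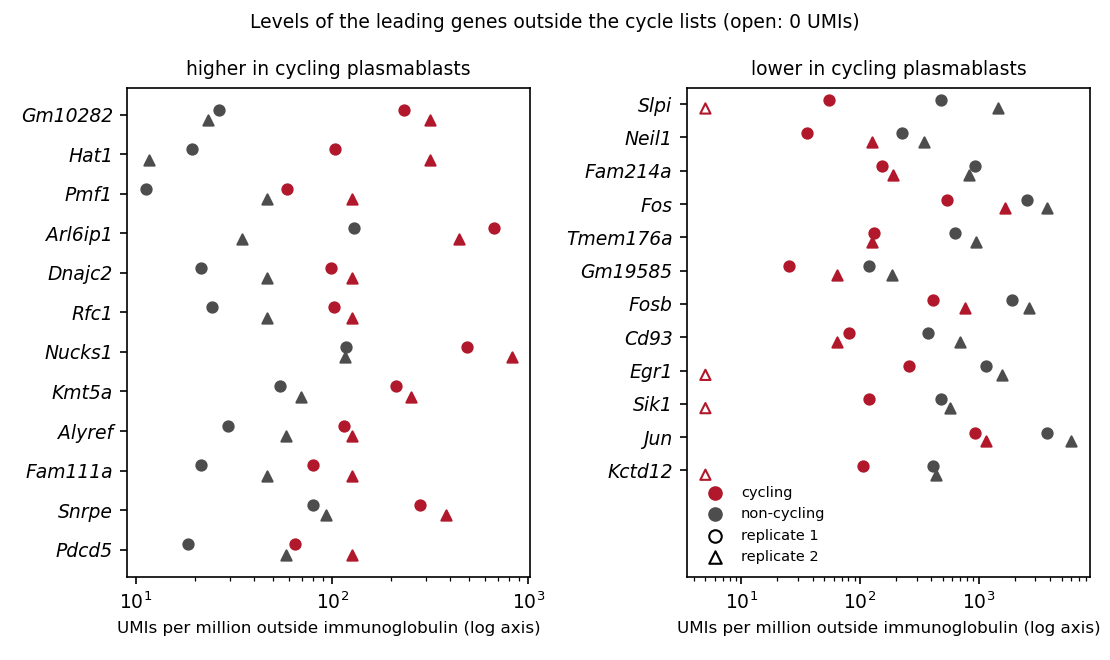
CPM (log axis) of the 12 leading genes called higher (left) and lower (right) in both replicates, in members (red) and non-cycling plasma cells (grey) of replicate 1 (circles) and replicate 2 (triangles); open symbols stand for 0 UMIs. Slpi lies at 54.9 and 0 against 485 and 1461.

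Immediate early genes, which stress of cell isolation also induces, had the lowest median of the gene lists other than the markers of other cell types, -1.26 in replicate 1. Of 18, 13 were at least 2-fold lower in replicate 1 and 8 in both. Fos (ENSMUSG00000021250.13, chromosome 12, 85473890 to 85477273, plus strand) had 537 and 1650.0 CPM in members and 2564 and 3779.8 in non-cycling cells, Jun 934 and 1142 against 3732 and 6029, and Egr1 259.9 and 0 against 1154 and 1565. Fosb had 409.9 and 762 against 1918 and 2667. These stayed lower per cell in replicate 1, at 4.84 against 9.86 UMIs for Fos, 8.42 against 14.4 for Jun and 2.34 against 4.44 for Egr1. Junb, Zfp36, Ppp1r15a and Ier5 did not pass in replicate 2, where Zfp36 was 2538 against 2922. Hspa8, a constitutive chaperone of the same list, was 826 against 569 in replicate 1 and 381 against 510.2 in replicate 2. Per cell the list's median was -0.03, against 1.18 over all genes counted.

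Some of the lower genes had a higher level in other cells of the sample. Of the 86 genes called lower in members, 47 had a higher level in the other kept cells of replicate 1 than in non-cycling plasma cells, where 44.8% of all genes counted did, among them Fos with 2890.1, Egr1 with 2985 and Tmem176a with 771 CPM, as did the stromal gene Dcn with 6456. Of the 92 genes called higher 3 had a higher level there than in members, where 42.2% of all genes counted did. The 92 had been chosen for a high level in members, so this low count follows at least in part from the choice. Dcn was among the 86, at 280.0 and 63.5 against 649 and 2852, and per cell at 2.52 and 0.500 against 2.5 and 11.2. Cst3 was as well, at 519 and 317 against 1311 and 1600.0. Other stromal genes among the 86 included Grem1, C3, Fn1, Bgn, Fbln1, Mfap4, Sfrp1 and Serping1. In replicate 2, 2 of the 22 non-cycling cells held 844 and 732 of the 1629 stromal and endothelial marker UMIs. How far the calls of stromal genes rest on these cells was not tested. The part of RNA from other cells in the lower genes was not tested either.

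Cycling cells without any UMI of the plasma gate gave the same contrast in other cells, 88 in replicate 1 and 85 in replicate 2, set against 1208 and 3943 cells with at most 1 cycle UMI. They share no cell with the members. Of the 92 genes called higher in members, 89 were also above a ratio of 1 there in replicate 1 and 88 in replicate 2, where 53.3% and 49.6% of all genes with a ratio were. At least 2-fold higher were 37 and 40 of the 92, against 9.52% and 8.51% of genes counted. The same cycle gate defines both contrasts, so genes of the cycle lists among the 92 were bound to rise in both. Outside the cycle lists, 63 and 62 of 66 were above 1, and 16 and 17 were at least 2-fold higher. Their medians were 0.65 and 0.65 against 1.34 in the members of replicate 1. Of the 86 lower genes, 70 of 86 and 75 of 84 with a ratio were below 1. The median log2 ratios over all genes with a ratio were 0.06 and -0.01. At least 2-fold lower were 37 and 28 of the 86, against 11% and 8.46% of genes counted. Stromal genes were among them, such as Dcn (-3.18 and -1.47) and Fn1 (-4.19 and -2.23). The cycling and non-cycling groups of these other cells can hold different cell types, and the part of this in the counts was not tested.

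The list medians of the members can be set beside those of the other cycling cells. The S phase median was 2.83 in plasma cells of replicate 1 and 2.38 and 2.45 in the other cells of both replicates, and the G2 and M phase median 3.60 against 3.74 and 3.52. Nucleotide synthesis was at 1.00 against 0.61 and 0.73, and ribosomal proteins at 0.68 against 0.39 and 0.21. Oxidative phosphorylation was at 0.53 against 0.46 and 0.43, and the SET1 and MLL complexes at -0.16 against -0.21 and -0.27. MHC class II genes were at -0.38 in plasma cells but at 2.39 and 1.35 in the other cells, whose cycling and non-cycling groups can hold different cell types. Plasma cell identity genes were at -0.67 against -0.12 and 0.02. With 2 replicates and 2 members in one of them, none of these differences between kinds of cell was tested.

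**Figure D5:**
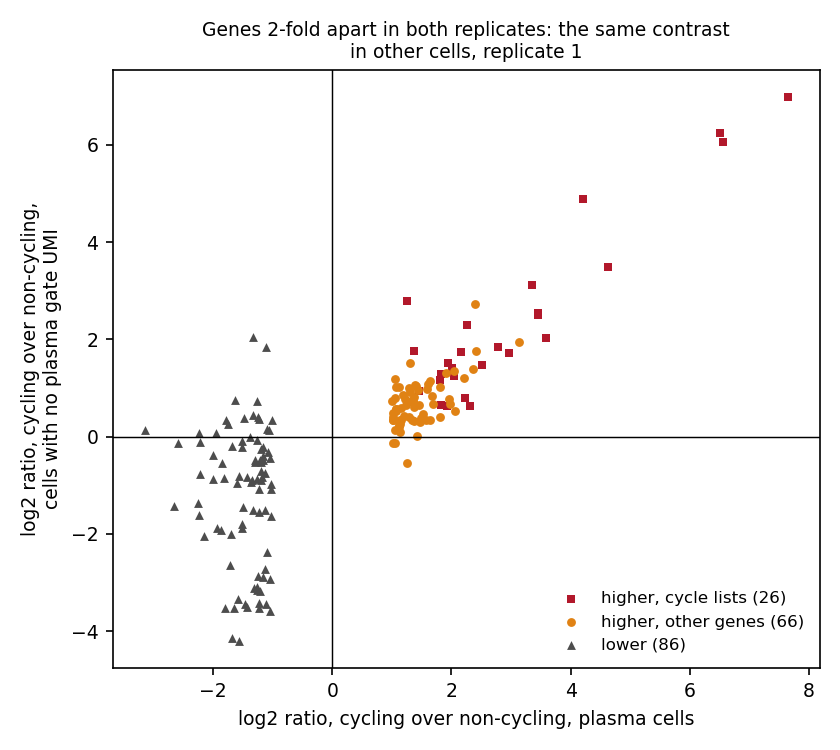
Log2 ratios in replicate 1 of the 92 higher and 86 lower genes, members over non-cycling plasma cells (horizontal axis) against the same contrast in cells with no UMI of the plasma gate (vertical axis). Higher genes lie above 0 on the vertical axis for 89 of 92, and lower genes lie below 0 for 70 of 86.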

How the data were processed

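Per the file headers, the deposited tables hold counts of molecules (UMIs) per cell and gene, made by the BD WTA Multiplex Rhapsody Analysis Pipeline 1.8 with GRCm38 and GENCODE vM19 genes, and not normalised. Sample tag calls are deposited names (unit other than a count) from the same pipeline, per the file headers. HISAT2 (2.0.5) and Bowtie2 stand in the submitters' processing notes, with no role given. The captures held 8064 and 15793 cells. Of these 2077 (sample tag 4, replicate 1) and 4532 (sample tag 2, replicate 2) were used, with 11939862 and 12141164 UMIs and medians of 4027 and 2269 per cell, while 6 other tags, multiplets and undetermined cells were not used here. A cell was kept from 300 genes upward and up to a mitochondrial share of 25%, with the 21027 genes in both tables.

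The members and gene lists were chosen with earlier results of these data known. An edgeR fit was planned but, as its plan says for under 10 members in a replicate, was not read: UMIs were summed per replicate and class, and called means at least 2-fold in the same direction in both replicates with at least 20 UMIs in all. Calls in replicate 1 alone, and totals without immunoglobulin as the scale, were chosen after values were seen. A class at 0 UMIs was set to a floor of 3 counts, which gives a bound. Ratio intervals are exact and conditional on the sum, shares have exact Clopper-Pearson intervals, both at 95% and for counting error only. Named genes are the 12 largest ratios a direction at 50 or more CPM in the higher class, outside the gate genes, cycle lists and immunoglobulin variable genes, up to 4 called and the 2 most abundant others per list, up to 4 past 2-fold in replicate 1 alone (added after values were seen), the 6 most abundant of each cycle list, all immunoglobulin constant genes, Cxxc1 and the cell type markers. Coordinates are from GENCODE vM21 (GRCm38), promoters from RefSeq. Some items are not reported here. Scripts ran in Python 3.11.15 with pandas 2.3.3, matplotlib 3.10.9, numpy 2.4.6 and scipy 1.17.1.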

Additional observations from a re-analysis of the deposited data

How the results depend on the processing

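The counts of 92 higher and 86 lower genes depend most on the scale. With immunoglobulin in the totals they were 603 and 10, and per cell 1205 and 3. In replicate 1 alone, 806 and 1027 became 2682 and 304 with immunoglobulin in the totals and 4885 and 114 per cell, since both scales move all genes alike. After thinning to 2000 UMIs, 8 and 10 were called in both and 286 and 348 in replicate 1 alone, where 2896 genes could be counted. Of these calls, 5 and 8 were among the 92 and 86, and 147 and 149 among the 806 and 1027. Without a minimum of UMIs the lower genes of replicate 1 alone were 1848. Leaving out 1 replicate gave 642 to 806 higher and 316 to 1027 lower genes. A cycle gate of 5, a plasma gate of 10, a mitochondrial maximum of 10%, and leaving out cells under 10% immunoglobulin or with 25 or more UMIs of other types' markers (both chosen after seeing the data) kept these counts within 1.5 times. The genes called were not all the same. Without cells of 25 or more marker UMIs, 66 of the 92 higher and 61 of the 86 lower genes were called again. In replicate 1 alone 662 of 806 and 657 of 1027 were. The others of these settings kept 67 to 90 of the higher and 70 to 86 of the lower genes. Per cell the log2 ratios of Dcn (0.015), Dnajb9 (0.10), Lax1 (0.039) and Sdc1 (0.19) in replicate 1 turned positive. Without cells under 10% immunoglobulin its share was 28.3% in members, 56.1% in non-cycling cells of replicate 1 and 55.5% of replicate 2. Non-cycling cells had 53.3% and 57.4% in replicates 1 and 2 after thinning, 56.9% in replicate 2 at a plasma gate of 10, and 56.7% and 58.4% without cells of 25 or more marker UMIs. The cycling share and the isotype stayed within their intervals. The planned limit of 2 marker UMIs left 0 members, and the fits without a block, with DESeq2 and with the class of 2 cycle UMIs were not run, since replicate 2 has 2 members. No paired analysis was possible because the planned fit, with the replicate as a block, was not to be read with under 10 members in a replicate; the calls compare the classes within each replicate. The 2 members of replicate 2 limit every statement on both replicates.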
